A study of Mus musculus with 6 samples.

Results

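The replication-dependent histone genes of the mouse were examined as the 67 protein-coding rows, of 54532 rows in the table, whose symbols begin with Hist1h, Hist2h, Hist3h or Hist4h. Of these, 6 encode linker histone H1, 18 H2A, 18 H2B, 12 H3 and 13 H4. All 67 had the positions given by GENCODE release M21, and coordinates are those of mouse build GRCm38. The Hist1 cluster on chromosome 13 held 54 of the genes, the Hist2 cluster on chromosome 3 held 10, the Hist3 cluster on chromosome 11 held 2 and Hist4h4 lay on chromosome 6.

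RNA was sequenced from bone marrow cells that carry CD11b, an integrin chain of myeloid cells, taken from tibias of mice aged 12 weeks. In 3 libraries the mice were labelled Tshr+/+ and in 3 they were labelled Tshr-/-, a genotype that another label calls a knockdown. The Tshr gene codes for the thyroid-stimulating hormone receptor. All 6 libraries carry the treatment label osteoclast differentiation, with no time and no culture step described. The allele, the strain and the sex of the animals are not given in the labels used here, and each library is taken to be 1 animal, since the titles carry the numbers 1 to 3 within a genotype. In RNA from a mixed cell population, fewer cells of a type and less RNA per cell cannot be told apart.

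Histone H2A, H2B, H3 and H4 form the octamer that DNA wraps around in the nucleosome, and H1 binds the DNA where it enters and leaves. Most of their genes stand in clusters, lack introns and are transcribed mainly while DNA is copied, when new chromatin needs new histones. Their messengers classically end in a stem-loop, which is bound by the protein Slbp, in place of a poly(A) tail. In bone marrow, dividing myeloid precursors copy DNA, and mature neutrophils do not divide.

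The stem-loop is shown because it is the feature that sets these messengers apart. A pattern of 16 bases was searched on the transcript strand of GENCODE M21 transcripts, with GG at one end, CC at the other, CT before the loop, AG after it, T as the first and the third base of the loop, and any base elsewhere. The pattern was chosen after expression values had been seen. It was found in 46 of the 67 genes, and an annotated transcript that stops before the stem-loop cannot hold it. The same pattern was found in 119 other protein-coding genes, 0.544% of them. The forms shared by more than 1 histone gene are written with the 4 loop bases, positions 7 to 10 from the 5′ end, in capitals.
H1, H2A, H2B and H3 form, 26 genes: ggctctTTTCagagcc
H1, H2B and H3 form, 6 genes: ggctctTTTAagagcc
H4 form, 7 genes: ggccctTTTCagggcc
H4 form, 2 genes: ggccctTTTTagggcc
H4 form, 2 genes: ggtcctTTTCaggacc
No stem of the 12 H4 genes with a match was found in another family, and 3 further forms occurred in 1 gene each. The first form was that of Hist1h1c, Hist1h2bg and Hist1h2ao, and the fourth was that of Hist1h4i. Hist1h2bc had no match in its annotated transcript.

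The 6 libraries held 14698126 to 17976477 fragments, and between 20762 and 21358 genes were above 0. Values are deposited FPKM, in which fragments are scaled to gene length and library size. Tshr was read first, as a check of the labels. In Tshr+/+ 1, 2 and 3 its level was 0.537, 0.552 and 0.405 FPKM, from 55, 55 and 45 fragments. In Tshr-/- 1, 2 and 3 it was 0.414, 0.297 and 0.00825 FPKM, from 40, 25 and 1 fragments. Tshr was therefore nearly absent in only 1 of the 3 libraries labelled Tshr-/-, and the sources used here do not give the altered stretch of the gene. The means of 0.498 ± 0.0811 and 0.239 ± 0.209 FPKM (SD, n = 3) gave an exact two-sided permutation p of 0.2, where 0.1 is the smallest that 3 against 3 allow. Every direction below is between libraries as labelled.

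Levels within the clusters were very uneven. The linker histone gene Hist1h1c averaged 253 FPKM over the 6 libraries and made up 65.1% of the summed FPKM of all 67 genes. It was 10.1 times the next gene, Hist1h2bc at 25 FPKM, and ranked 168 among all tested genes. Hist1h4i averaged 20.1 FPKM and Hist1h2bg 11.3 FPKM, and these 4 genes together held 79.6% of the summed level. Another 30 genes averaged between 1 and 10 FPKM, and 33 were under 1 FPKM.

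By place, the Hist1 cluster held 98.9% of the summed FPKM, Hist2 0.703%, Hist3 0.319% and Hist4h4 0.0459%. Within Hist1, the stretch from 23531050 to 23934851 held 31 genes and 84.6% of the level of all 67, with Hist1h1c in it, and the stretch from 21715763 to 22043676 held 23 genes and 14.3%. None of the 10 Hist2 genes reached the level needed for testing, and the highest of them, Hist2h2ac, averaged 0.996 FPKM. Genes were tested where at least 1 FPKM was reached in at least 3 of the 6 libraries, which 34 of the 67 histone genes did, among them 4 of H1, 7 of H2A, 8 of H2B, 7 of H3 and 8 of H4. The lowest mean among tested genes was 1.06 FPKM, in Hist1h4n, and within a factor of 1.5 of 1 FPKM there were 12 genes above and 8 below.

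Of the 33 genes that were not tested, 25 had fragments and 8 were listed at 0 in all libraries. The 8 were Hist1h2aa, Hist1h2ba, Hist1h4b, Hist2h2aa1, Hist2h2aa2, Hist2h2bb, Hist2h3b and Hist2h3c1. Each transcript was read in windows of 50 bases to find sequence shared with other genes. The 5 Hist2 genes listed at 0 had no window of their own (0% unique), while the share was 24.1% in Hist1h4b, 61.8% in Hist1h2ba and 76.2% in Hist1h2aa. In 35 of the 67 genes fewer than 50% of the windows were found in no other gene. Such values are uncertain, since the sources used here do not give how fragments matching several genes were assigned. Hist1h2ao shared 93.5% of its windows with Hist1h2ap, and its level cannot be told apart from that of its copy by sequence alone. Hist1h1c was distinct, with 91.5% of its windows unique. In 24 of the genes another annotated gene overlapped, on the same strand in 7, among them Hist1h1e and Hist1h2be with each other, and the sources likewise do not give the use of strand in the counting.

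**Figure D1:**
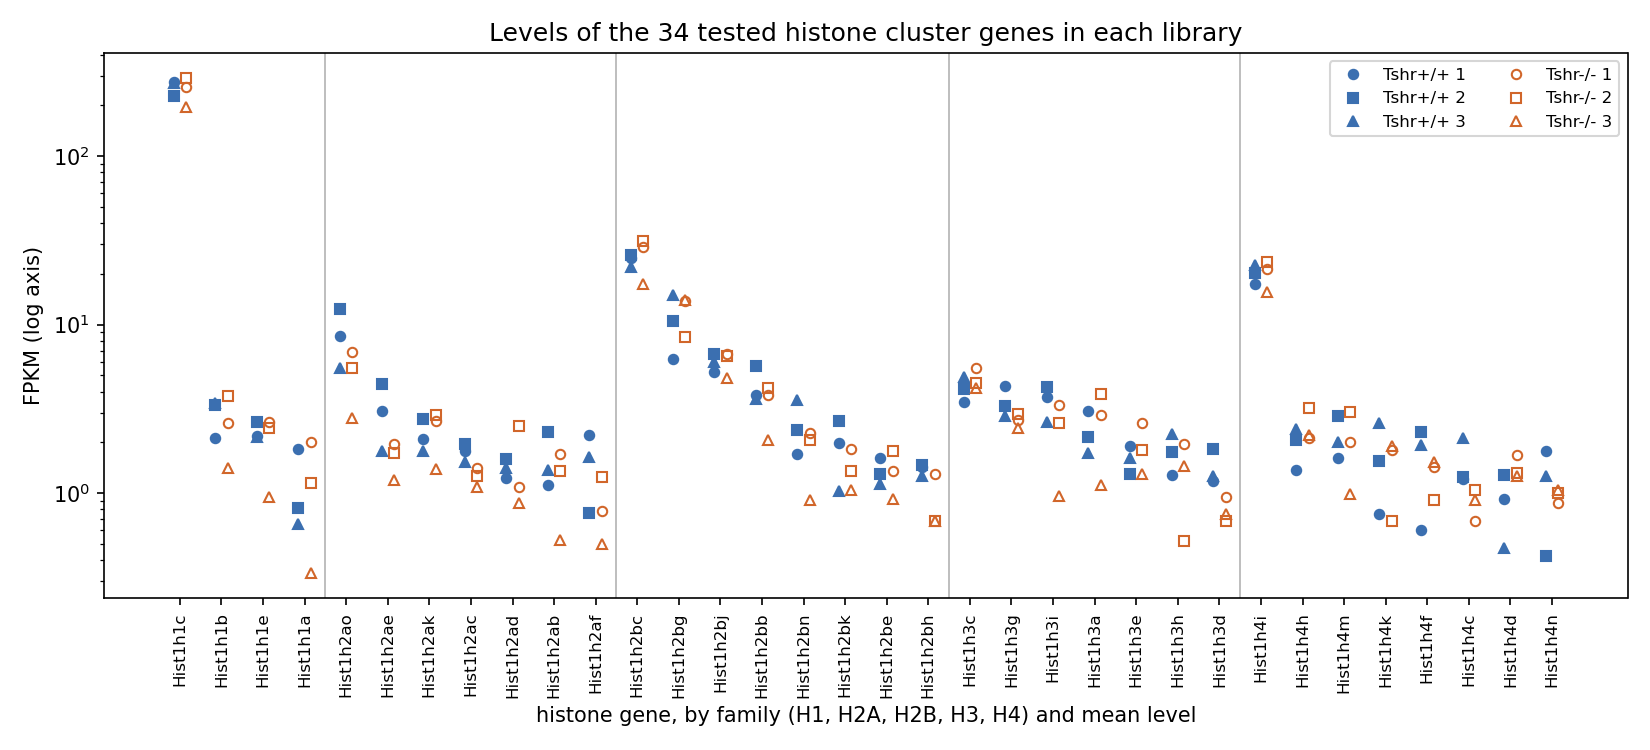
FPKM of the 34 tested histone genes (log axis) in each of the 6 libraries, arranged by family and mean level, with filled marks for Tshr+/+ and open marks for Tshr-/-. Hist1h1c lies far above the others at 196 to 291 FPKM, and most genes lie between 1 and 10 FPKM.

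The annotated ends varied widely in length. In Hist1h1c, the gene model of 1560 bases ran 840 bases past the stem-loop letters, while the RefSeq model of the same gene is 725 bases long. The model of Hist1h4i ran 330 bases past and that of Hist1h2bg 155 bases past. Counting 100 bases as the limit, a choice made after the values were seen, 23 genes ended within it, with a median of 1.40 FPKM and a highest value of 6.95 FPKM, in Hist1h2ao. Another 23 ran on further, with a median of 1.11 FPKM and a highest value of 253 FPKM. The 21 without a match had a median of 0.916 FPKM. Some of their models are short, such as Hist1h4k with 312 bases and Hist1h2bn with 381 bases. In Hist1h4f and Hist1h2bp the stem-loop letters start at base 343 and base 416. A model without a match therefore does not show that the gene lacks the stem-loop. A poly(A) signal, AATAAA or ATTAAA on the transcript strand, stood in the last 50 bases of the longest transcript in 12 of the 23 genes that ran on, in 2 of the 23 that ended within the limit and in 2 of the 21 without a match. Among all protein-coding genes the share was 68.7%. Models that stop before or soon after the stem-loop leave out any signal further on. These counts thus describe the annotated ends and do not show which genes lack a signal. The 3 genes with a match above 10 FPKM were among those that ran on. So were 20 genes at lower levels, such as Hist1h2ae at 2.36 FPKM with 151 bases. FPKM divides fragments by the length of the model, so level and end length are not separate measures. Over the 6 libraries Hist1h1d had 391 fragments on 7425 bases and averaged 0.522 FPKM. Hist1h1b had 206 fragments on 743 bases and averaged 2.77 FPKM. The labels name a SMARTer mRNA kit with total RNA as input. The sources used here do not give whether poly(A) tails were selected, and the part of such a step in the levels was not tested.

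**Figure D2:**
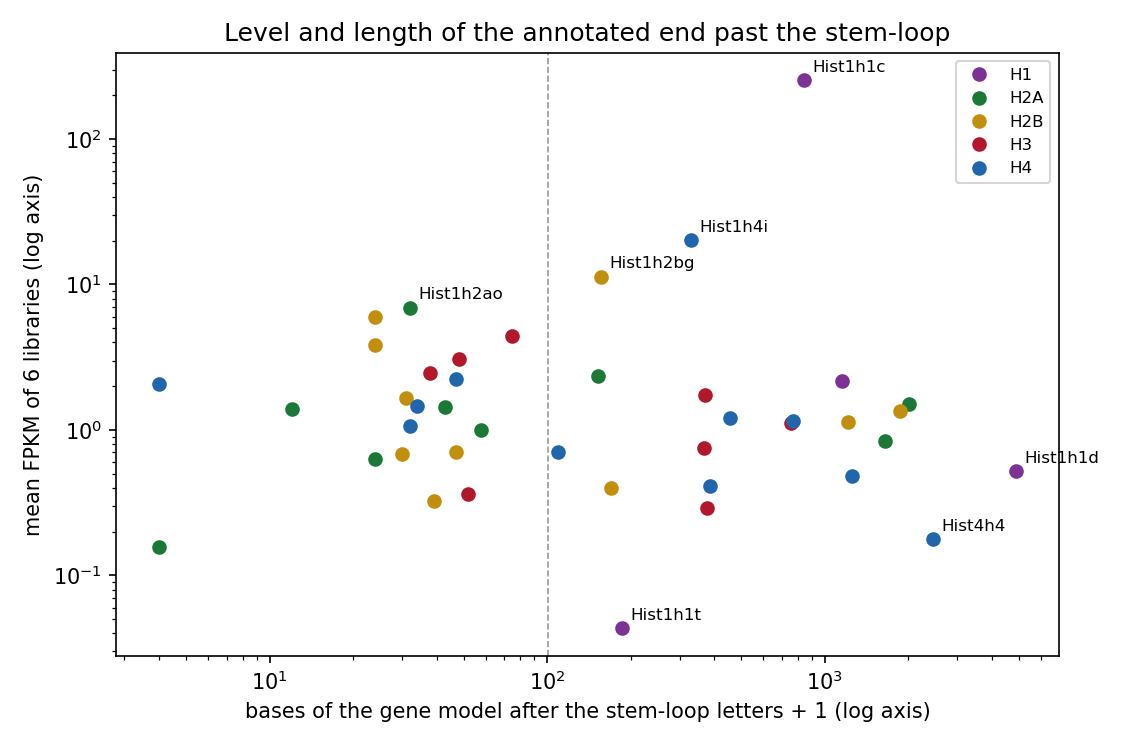
Mean FPKM over 6 libraries against the number of bases of the gene model after the stem-loop letters (both log axes) for the 42 genes with a match and a level above 0, coloured by family. The dashed line marks 100 bases, and Hist1h1c, Hist1h4i and Hist1h2bg lie to its right.

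Promoters are shown for 3 genes with contrasting levels and motifs. RefSeq promoters of build GRCm38.p6 matched 61 of the 67 genes. The letters CCAAT, the core of the NF-Y site, and TATAAA, a form of the TATA box, were searched. So were ATTTGCAT, the octamer known from H2B promoters, and AAACACAAA, a form of a motif known from H1 promoters. Both strands were read from 250 bases before to 50 bases after the start. These motifs were chosen after the values were seen. The 200 bases before the start are printed 5′ to 3′ on the gene's strand, with matches in capitals.
Hist1h1c, chr13:23738607-23738806, plus strand: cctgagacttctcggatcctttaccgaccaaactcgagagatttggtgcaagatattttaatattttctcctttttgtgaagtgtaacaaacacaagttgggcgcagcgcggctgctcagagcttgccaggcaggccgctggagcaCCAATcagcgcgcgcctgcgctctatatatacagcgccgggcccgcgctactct
Hist1h4i, chr13:22041363-22041562, minus strand: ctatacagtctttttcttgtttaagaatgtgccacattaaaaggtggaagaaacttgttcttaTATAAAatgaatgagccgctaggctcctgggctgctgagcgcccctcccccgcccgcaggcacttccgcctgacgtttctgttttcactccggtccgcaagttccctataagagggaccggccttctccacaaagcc
Hist1h2bg, chr13:23571200-23571399, plus strand: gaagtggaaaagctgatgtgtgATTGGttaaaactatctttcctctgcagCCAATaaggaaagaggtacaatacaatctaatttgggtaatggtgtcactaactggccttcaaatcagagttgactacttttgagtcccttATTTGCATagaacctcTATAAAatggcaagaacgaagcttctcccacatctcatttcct
In these windows Hist1h1c held 1 of the 4 motifs, CCAAT, and Hist1h4i held TATAAA alone, while Hist1h2bg held the NF-Y core, the TATA box and the octamer. CCAAT was found in 52 of the 61 promoters against 37.4% of all 32851 promoters. By family it was in 6 of 6 H1, 17 of 17 H2A, 16 of 16 H2B and 10 of 10 H3 promoters, and in 3 of 12 H4 promoters. TATAAA was found in 35 of 61 against 13.6%. AAACACAAA was found in 3 of 61 against 0.767%, in 1 of 6 H1, 1 of 17 H2A and 1 of 16 H2B promoters. Only exact strings were counted. The printed Hist1h1c sequence holds aaacacaag, which differs from AAACACAAA in the last letter alone. The H1 count therefore does not show that the motif is absent from the other H1 promoters. ATTTGCAT was found in 13 of 61 against 1.74%, in 7 H2A and 6 H2B promoters and in none of the other families. Neighbouring H2A and H2B promoters share bases, so their matches are not separate. A match describes letters and does not show binding.

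Many H2A and H2B genes start back to back. Counting opposite starts less than 1000 bases apart, 13 such pairs were found with 26 genes, of which 12 joined an H2A with an H2B gene and 1 an H2B with an H3 gene. The genes of a pair often differed in level. Hist1h2bc averaged 16.7 times the level of Hist1h2ac, whose start lies 251 bases away. Hist1h2ae averaged 2.36 FPKM and its neighbour Hist1h2bg 11.3 FPKM, and Hist1h2bq averaged 0.300 FPKM beside Hist1h2ao at 6.95 FPKM. In each of these pairs the lower gene has the longer model, so the genes differ less in fragments than in FPKM. Over the 6 libraries Hist1h2bc had 2899 fragments on 1156 bases and Hist1h2ac 379 on 2482 bases. Hist1h2ao had 335 on 480 bases and Hist1h2bq 62 on 2015 bases. Only 1.54% of the windows of Hist1h2bq were unique. Both genes averaged at least 1 FPKM in 3 pairs, 1 of them did in 5 pairs, and neither did in 5 pairs.

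No histone gene passed the test between the groups. With limma on log2(FPKM + 1), 0 of the 34 histone genes had a Benjamini-Hochberg adjusted p under 0.05, and 0 of all 10913 tested genes did (0%). At an unadjusted p under 0.05 there was 1 histone gene, Hist1h3d, and 317 genes in all (2.9%). With the replicate number as a block, 5 histone genes had an unadjusted p under 0.05 against 5.97% of all genes, and 0 passed after adjustment. With voom on whole fragments, 0 of 13709 genes and 0 of 38 histone genes passed. The limma adjusted p of each of the 34 was 0.9997. Because 1 is added before the logarithm, fold changes of weakly expressed genes come out smaller than the ratios of their FPKM.

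Fitted differences were above 0 in 10 of the 34 genes and below 0 in 24, with a median of -0.12, where 52.9% of all tested genes were below 0 and their median was -0.01. With libraries rescaled to equal sums of fragments the split was 14 above and 21 below of 35. The sign of the median rested on 1 library: without Tshr-/- 3 it was 0.03, with 17 genes above and 17 below 0. The genes are also thinly covered, since the median tested histone gene averaged 22.9 fragments per library and 14 of the 34 averaged under 20.

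**Figure D3:**
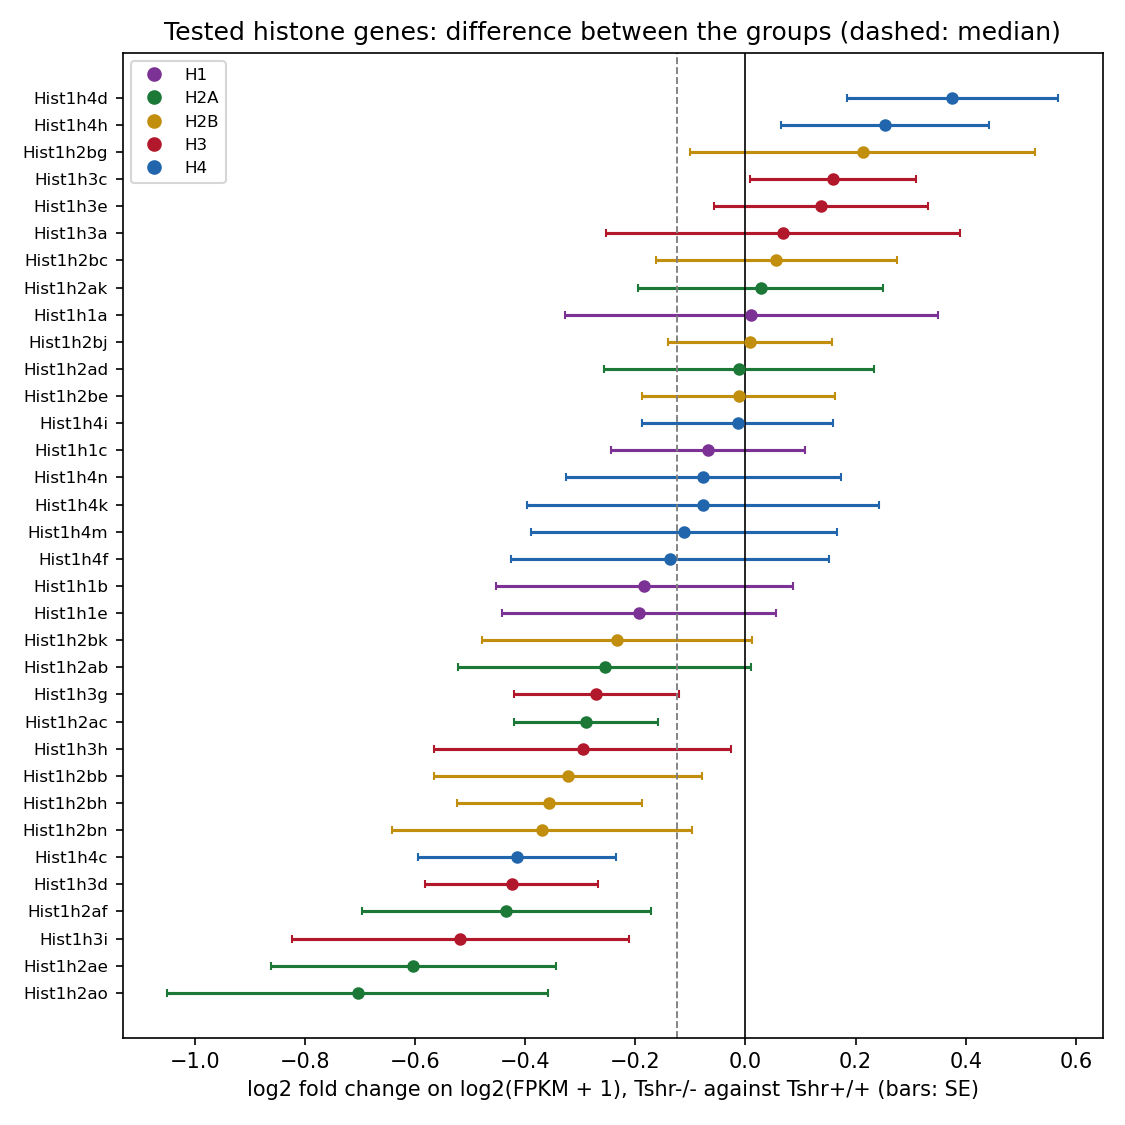
Fitted log2 fold change on log2(FPKM + 1), Tshr-/- against Tshr+/+, for the 34 tested histone genes with SE bars, coloured by family. The dashed line is the median of -0.12, and none of the genes had an adjusted p under 0.05.

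Among linker histones, Hist1h1c (chr13:23738808-23740367) stood at 275, 226 and 272 FPKM in Tshr+/+ 1, 2 and 3 and at 257, 291 and 196 FPKM in Tshr-/- 1, 2 and 3. Its groups overlapped, and in deposited FPKM both the highest and the lowest value lay among the Tshr-/- libraries. By share of fragments the lowest was Tshr+/+ 2, with 5842 of 17640437 against 6154 of 17976477 in Tshr-/- 3. The log2 fold change was -0.07 (SE 0.18). Hist1h1b, another linker histone gene, stood at 2.13, 3.33 and 3.42 FPKM in Tshr+/+ and at 2.59, 3.74 and 1.40 FPKM in Tshr-/-. Hist1h1e stood at 2.19, 2.63 and 2.16 FPKM in Tshr+/+ and at 2.64, 2.44 and 0.951 FPKM in Tshr-/-. In deposited FPKM, Tshr-/- 3 was lowest in all of these genes and the other libraries were mixed. The summed H1 level was 265 ± 27.0 FPKM for the Tshr+/+ and 254 ± 51.1 FPKM for the Tshr-/- libraries (SD, n = 3), a ratio of 0.960.

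The H2A genes had the lowest ratio of family sums, at 24.2 ± 6.27 FPKM for the Tshr+/+ and 17.5 ± 5.23 FPKM for the Tshr-/- libraries (SD, n = 3), a ratio of 0.723, and the groups overlapped. Hist1h2ao, the most abundant, stood at 8.56, 12.4 and 5.52 FPKM in Tshr+/+ and at 6.86, 5.50 and 2.79 FPKM in Tshr-/-. Its log2 fold change was -0.70 (SE 0.35), and -0.40 without Tshr-/- 3, -0.45 without Tshr+/+ 2 and -0.97 without Tshr+/+ 3. Hist1h2ae stood at 3.08, 4.46 and 1.77 FPKM in Tshr+/+ and at 1.94, 1.72 and 1.20 FPKM in Tshr-/-, with a log2 fold change of -0.60 (SE 0.26), and -0.37 without Tshr+/+ 2. In both genes Tshr+/+ 2 was highest and Tshr-/- 3 lowest, and the groups overlapped. Hist1h2ac stood at 1.77, 1.95 and 1.52 FPKM in Tshr+/+ and at 1.40, 1.26 and 1.08 FPKM in Tshr-/-, so that its groups did not overlap, and its log2 fold change was -0.29 (SE 0.13).

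The H2B sums were 57.1 ± 6.29 FPKM for the Tshr+/+ and 56.9 ± 9.17 FPKM for the Tshr-/- libraries (SD, n = 3), a ratio of 0.997. Hist1h2bc stood at 24.7, 25.8 and 21.9 FPKM in Tshr+/+ and at 28.7, 31.5 and 17.4 FPKM in Tshr-/-. The Tshr-/- libraries lay on both sides of all Tshr+/+ libraries, and the log2 fold change was 0.06 (SE 0.22). Hist1h2bg stood at 6.27, 10.5 and 14.9 FPKM in Tshr+/+ and at 13.8, 8.42 and 13.9 FPKM in Tshr-/-, and the groups overlapped. Hist1h2bn stood at 1.69, 2.38 and 3.55 FPKM in Tshr+/+ and at 2.28, 2.06 and 0.912 FPKM in Tshr-/-. Hist1h2bh stood at 1.43, 1.47 and 1.26 FPKM in Tshr+/+ and at 1.30, 0.680 and 0.680 FPKM in Tshr-/-. Only Tshr-/- 1 of that group reached into the range of Tshr+/+ for Hist1h2bh.

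For the core histone H3, sums were 19.8 ± 1.05 FPKM for the Tshr+/+ and 17.6 ± 4.49 FPKM for the Tshr-/- libraries (SD, n = 3), a ratio of 0.889. Hist1h3c, the most abundant H3 gene, stood at 3.45, 4.12 and 4.89 FPKM in Tshr+/+ and at 5.53, 4.53 and 4.17 FPKM in Tshr-/-, with overlapping groups. Hist1h3g stood at 4.32, 3.30 and 2.86 FPKM in Tshr+/+ and at 2.70, 2.96 and 2.43 FPKM in Tshr-/-. Its groups overlapped through Tshr+/+ 3 and Tshr-/- 2. Hist1h3d (chr13:23575763-23577011) stood at 1.17, 1.84 and 1.26 FPKM in Tshr+/+ and at 0.946, 0.685 and 0.755 FPKM in Tshr-/-. Its groups did not overlap, its log2 fold change was -0.42 (SE 0.16), and the unadjusted limma p was 0.0311.

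The H4 sums were 33.0 ± 5.20 FPKM for the Tshr+/+ and 32.2 ± 5.44 FPKM for the Tshr-/- libraries (SD, n = 3), a ratio of 0.978. Hist1h4i stood at 17.5, 20.2 and 22.6 FPKM in Tshr+/+ and at 21.3, 23.3 and 15.6 FPKM in Tshr-/-, with a log2 fold change of -0.01 (SE 0.17). In deposited FPKM its highest and lowest values both lay among the Tshr-/- libraries. By share of fragments its lowest was Tshr+/+ 1, with 217 of 17635762, and its highest Tshr+/+ 3, with 304 of 17072004. Hist1h4h stood at 1.37, 2.05 and 2.42 FPKM in Tshr+/+ and at 2.12, 3.19 and 2.22 FPKM in Tshr-/-. Hist1h4d stood at 0.928, 1.27 and 0.475 FPKM in Tshr+/+ and at 1.69, 1.32 and 1.26 FPKM in Tshr-/-, with a log2 fold change of 0.38 (SE 0.19), and 0.21 without Tshr+/+ 3. In both genes the groups overlapped. Hist1h4c stood at 1.22, 1.25 and 2.11 FPKM in Tshr+/+ and at 0.682, 1.04 and 0.908 FPKM in Tshr-/-, without overlap, and its log2 fold change was -0.41 (SE 0.18).

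Groups did not overlap in 3 of the 34 genes, Hist1h3d, Hist1h2ac and Hist1h4c, each with Tshr-/- below. Among all tested genes 3.55% had Tshr-/- below without overlap, 3.23% had it above, and 6.77% were apart in either direction. The 3 genes averaged under 2 FPKM, and none had an adjusted p under 0.05.

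**Figure D4:**
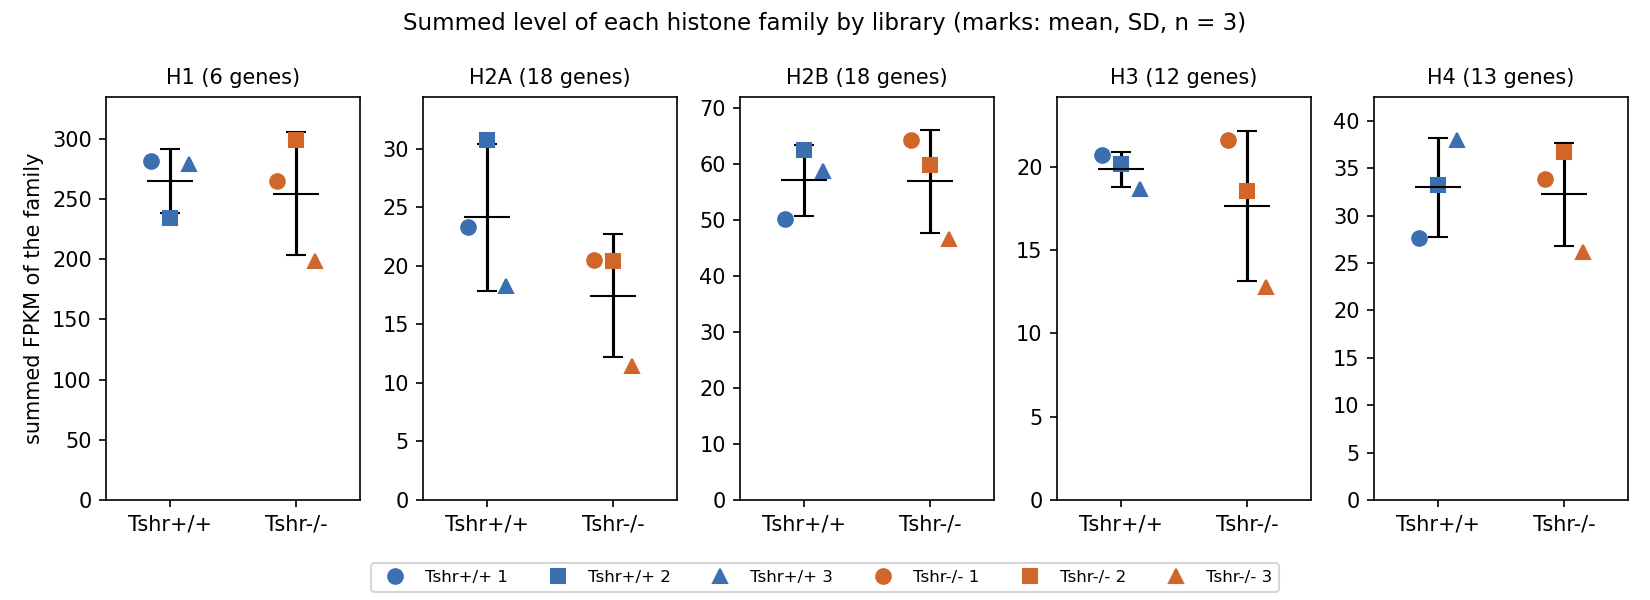
Summed FPKM of the H1, H2A, H2B, H3 and H4 genes in each library, with the mean and SD of each group (n = 3) and axes from 0. In deposited FPKM, Tshr-/- 3 has the lowest sum in each of the 5 families, a rank that depends on the scaling. The other Tshr-/- libraries lie within or near the range of Tshr+/+.

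The library labelled Tshr-/- 3, the one in which Tshr was nearly absent, stood apart in histone levels, which was noticed after the values were seen. Its family sums in deposited FPKM were 199 for H1, 11.4 for H2A, 46.6 for H2B, 12.8 for H3 and 26.2 for H4. Each was the lowest of the 6 libraries. Against the Tshr+/+ means these sums were ratios of 0.750, 0.473, 0.818, 0.644 and 0.793. The rank depends on the scaling. H1 genes had 6258 of 17976477 fragments in Tshr-/- 3 and 6076 of 17640437 in Tshr+/+ 2. H4 genes had 352 fragments in Tshr-/- 3 and 328 of 17635762 in Tshr+/+ 1. By share of fragments, Tshr-/- 3 was thus not the lowest library for H1 and H4. It held the lowest of the 6 values in 21 of the 34 tested histone genes and the highest in 0, where 18.8% of all tested genes had their lowest value there. With libraries rescaled to equal sums the count was 16 of 34, against 8.44%.

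The low values were spread unevenly over the families. In deposited FPKM, Tshr-/- 3 was lowest in 4 of 4 tested H1 genes, 7 of 7 H2A, 5 of 8 H2B, 3 of 7 H3 and 2 of 8 H4. These counts depend on the scaling, since by share of fragments Hist1h1c was lowest in Tshr+/+ 2. The median distance from the Tshr+/+ mean in that library, on log2(FPKM + 1), was -0.41 over all 34, beside -0.01 over all tested genes. With libraries rescaled to equal sums of fragments these medians were -0.31 and 0.13. By family, in deposited FPKM, the median distance was -0.66 for H1, -0.71 for H2A, -0.45 for H2B, -0.37 for H3 and -0.005 for H4. In the other 5 libraries the median over the 34 genes lay between -0.06 and 0.08. With 1 library, whether this belongs to the genotype, the animal or the preparation cannot be told apart.

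Other genes of the pathway were read from lists of known members. Of 32 tested genes that transcribe or process histone messengers, 0 passed the test, 13 were above 0 and 19 below, and the median was -0.01. Slbp, which binds the stem-loop, was at 13.6 ± 0.771 FPKM for the Tshr+/+ and 13.5 ± 1.30 FPKM for the Tshr-/- libraries (SD, n = 3). Lsm10, a subunit of the U7 particle that cuts histone messengers, was at 18.2 ± 1.17 and 15.1 ± 0.726 FPKM, with groups that did not overlap. Lsm1, of the ring that starts their decay, was at 3.85 ± 0.438 and 3.16 ± 0.245 FPKM, also without overlap. Nfya, a subunit of NF-Y named here because it was the 1 gene of the list with Tshr-/- above without overlap, was at 11.2 ± 0.235 and 12.3 ± 0.107 FPKM. Of the 32 genes, 2 were thus apart with Tshr-/- below and 1 with it above, beside 3.55% and 3.23% of all tested genes. Among 25 histone chaperones 0 passed, with 12 above and 13 below 0.

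Most replication-independent histones are made throughout the cell cycle from messengers with poly(A) tails. The list of them used here also included H2afx, in which the stem-loop pattern was found. Of its 9 tested genes, 0 passed, 1 was above 0 and 8 below, with a median of -0.13. H3f3b, an H3.3 gene, was the most abundant at 593 ± 84.0 FPKM for the Tshr+/+ and 536 ± 74.5 FPKM for the Tshr-/- libraries (SD, n = 3). H2afz, which encodes H2A.Z, was at 369 ± 37.4 and 312 ± 14.0 FPKM, and H2afv at 45.9 ± 2.95 and 40.3 ± 4.43 FPKM. Groups did not overlap in H2afz and H2afv, 2 of the 9 genes, where 3.55% of all tested genes had Tshr-/- below without overlap. In Tshr-/- 3 the median distance of this list was -0.08, and in Tshr-/- 1 and 2 it was -0.14 and -0.11.

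Genes of S phase were not low in Tshr-/- 3. Of 35 tested genes of DNA replication, 0 passed the test, 10 were above 0 and 25 below. Groups were apart in 4 with Tshr-/- below and in 1 with it above, beside 3.55% and 3.23% of all tested genes. The median distance of this list was 0.04 in Tshr-/- 3, with 2 of 35 lowest there. It was -0.01 in Tshr-/- 1 and -0.20 in Tshr-/- 2. Of 16 mitosis genes, 0 passed, 13 were above 0, and the median distance was 0.30 in Tshr-/- 3 and 0.29 in Tshr+/+ 3, with 0 of 16 lowest in Tshr-/- 3. Pcna, the sliding clamp of the replication fork, stood at 82.3 FPKM in Tshr-/- 3, within the Tshr+/+ range of 80.2 to 100.4 FPKM.

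Of the tested markers of myeloid cells in 3 lists, 0 passed the test between the groups. The 7 mature neutrophil markers had a median distance of -0.43 in Tshr-/- 3, with 5 of 7 lowest there, and a summed level of 16767 FPKM against 22693 to 26922 FPKM in Tshr+/+ and 25520 and 30007 FPKM in Tshr-/- 1 and 2. The 9 markers of CD11b-positive cells had a median distance of -0.34, with 6 of 9 lowest there, and their summed level was 68753 FPKM against 83131 to 97835 FPKM in Tshr+/+. The 6 primary granule markers of granulocyte progenitors were at 0.31 in Tshr-/- 3, 0.40 in Tshr-/- 1 and 0.20 in Tshr+/+ 3, and their summed level was 2017 to 2570 FPKM in Tshr+/+ and 2190 to 2765 FPKM in Tshr-/-. Of the tested markers of other cells, 5 erythroid, 5 of B and plasma cells, 2 of T and NK cells, 3 of stem and progenitor cells, 7 of macrophages and 4 of megakaryocytes, 0 passed the test, and 1, of megakaryocytes, was lowest in Tshr-/- 3. Erythroid markers were above 0 in 5 of 5, with a median log2 fold change of 0.74, and the groups overlapped in each. Their median distances were 1.11, 0.70 and 0.41 in Tshr-/- 1, 2 and 3. In Tshr+/+ 1, 2 and 3 they were -0.23, 0.72 and -0.53, so Tshr+/+ 2 lay above Tshr-/- 2 and 3. Macrophage markers were below 0 in 7 of 7, with a median of -0.23. Their median distance was -0.58 in Tshr-/- 1, -0.35 in Tshr-/- 2 and 0.05 in Tshr-/- 3. In Tshr+/+ 1, 2 and 3 it was 0.13, -0.23 and 0.11. Markers of B and plasma cells were below 0 in 4 of 5, with a median of -0.40. T and NK markers were above 0 in 2 of 2, with a median of 0.50. At an unadjusted limma p under 0.05 there were 2 B and plasma cell, 1 macrophage and 1 T and NK marker, beside 2.9% of all tested genes. Groups were apart with Tshr-/- below in 1 macrophage marker and above in 1 T and NK marker. The shares of all tested genes were 3.55% and 3.23%. No marker of these lists was at 0 in all libraries, and their part in the histone levels was not tested.

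**Figure D5:**
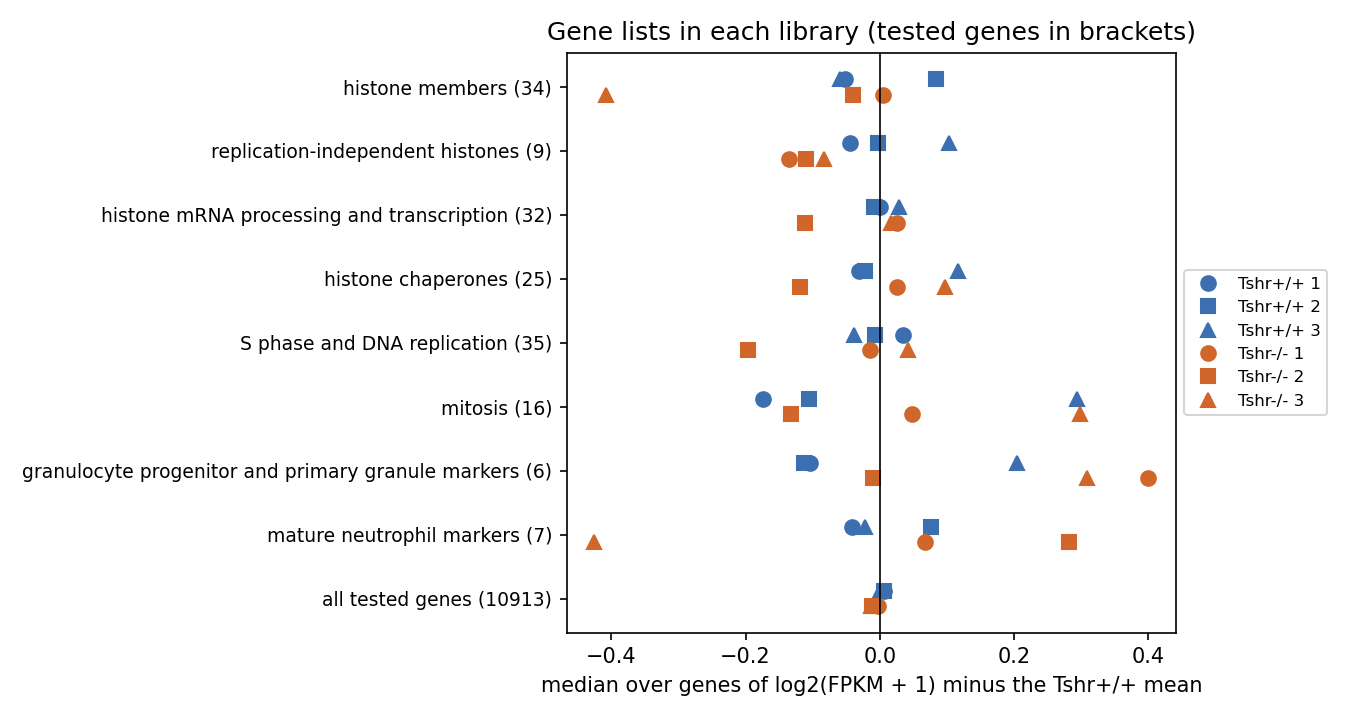
Median over the tested genes of each list of log2(FPKM + 1) minus the Tshr+/+ mean, by library. In deposited FPKM, the histone genes and the mature neutrophil markers lie at -0.41 and -0.43 in Tshr-/- 3. S phase genes lie at 0.04 and mitosis genes at 0.30 there, the latter beside 0.29 in Tshr+/+ 3.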

How the data were processed

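RNA libraries of CD11b-positive bone marrow cells (3 labelled Tshr+/+, 3 Tshr-/-) were analysed from 1 table of FPKM values, which the authors computed and deposited. Per the submitters' processing notes the builds were GRCm38 and mm10; the sources used here do not give the aligner, counter, use of strand or handling of fragments matching several genes. Columns headed HO were read as Tshr-/-. Deposited gene lengths, in bases, were used to recover fragments: values were whole multiples of 1 fragment in 100% of cases within 0.01, 1 fragment at 1 kb being worth 0.0496 to 0.0713 FPKM. 0 per-sample columns were left unused.

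The main test was limma 3.58.1 (R 4.3.3) on log2(FPKM + 1), with a variance trend, two-sided, Benjamini-Hochberg adjusted over the 10913 genes that reached 1 FPKM in 3 or more libraries. P-values measure the spread between these libraries. On simulated data with 200 changed genes among 10941 tested, limma found 71 of 100 changes of 2-fold and 98 of 100 of 4-fold, beside 11 false calls. The simulated spread was a fixed value, not taken from these libraries, and changed genes were drawn from those averaging at least 20 fragments. Of the 34 tested histone genes, 14 averaged under 20, so these rates do not give the power for the histone genes. The members and lists were chosen with earlier results of these data known. Named were, per family, the 2 most abundant genes and the 2 with the smallest p, and genes whose groups did not overlap. For each list the rule was the 2 smallest p and the most abundant. Not all such genes are named, and for some lists none is. Slbp and Nfya are named outside that rule. Same-numbered libraries deviated together (r = 0.24, 0.26 and 0.47; Tshr+/+ 2 with Tshr-/- 1, of unlike numbers, 0.34), so numbers were treated as pairing them in an alternative fit. Sequences came from RefSeq GRCm38.p6 and GENCODE M21.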

Additional observations from a re-analysis of the deposited data

How the results depend on the processing

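Under the alternatives run, no histone gene passed the threshold, and the lowest adjusted p of a named one was 0.0898, with array weights. Of 328 alternative values of named genes, 308 kept their direction and 20 reversed, none past the threshold. Over all genes, 3 were called with a filter of 0.1 FPKM in 3 libraries, 24 with array weights, 24 without both libraries numbered 3, and 0 to 2 when each library was left out, the 2 without Tshr-/- 3. With the replicate number as a block, 0 genes were called, and 5 histone genes against 1 had an unadjusted p under 0.05 (5.97% of all genes); the block changed no call.

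The histone median was -0.41 without Tshr-/- 1 and 2, and -0.21 to 0.03 when each library was left out. Without Tshr-/- 1 and 2, ratios of family sums were 0.750 for H1, 0.473 for H2A, 0.818 for H2B, 0.644 for H3 and 0.793 for H4; without both libraries numbered 3, H4 was 1.16. Reversed log2 fold changes of Hist1h4i were 0.021 with equal sums, 0.018 with voom, 0.086 with array weights and 0.23 without both libraries numbered 3. Those of Hist1h1c were 0.0050 with quantile normalization, 0.074 with array weights and 0.13 without both libraries numbered 3. Without both, Hist1h1b was at 0.16, Hist1h1e at 0.057 and Hist1h2bn at 0.072. Hist1h2bc was at -0.45 without Tshr-/- 1 and 2. With each library left out in turn, the values ran from -0.13 to 0.15 for Hist1h4i, -0.19 to 0.092 for Hist1h1c, -0.41 to 0.077 for Hist1h1b, -0.36 to 0.093 for Hist1h1e, -0.10 to 0.31 for Hist1h2bc and -0.086 to 0.48 for Hist1h2bg. Leaving out Tshr-/- 3 turned the sign of Hist1h1c, Hist1h1b, Hist1h1e and Hist1h4i; Tshr+/+ 3 that of Hist1h2bc and Hist1h4i; Tshr-/- 1 or 2 that of Hist1h2bc; and Tshr+/+ 1 that of Hist1h2bg. Where libraries were left out the fit held fewer samples; for the other settings the cause was not tested. Depth limits most of these genes: the thinnest tested one averaged 7.83 fragments per library.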

Other observations

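A histone row outside the protein-coding genes differed between libraries of 1 group. Hist1h2al, annotated as a processed pseudogene at chr13:51202727-51203065 on the minus strand, away from the Hist1 cluster, was at 23.3 FPKM in Tshr+/+ 3, from 146 fragments. It was at 0.178 FPKM in Tshr+/+ 2, from 1 fragment, and listed at 0 in the other 4 libraries. The pseudogenes Hist1h2aj and Hist3h2bb-ps stayed at or below 0.564 and 0.427 FPKM. These rows were singled out after their values were seen.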
